A study of Mus musculus with 6 samples.

Results

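The CC chemokine ligands are small secreted proteins that guide leukocytes, and 10 of their genes were followed in tumor-associated macrophages (TAMs): Ccl2, Ccl7, Ccl8, Ccl12, Ccl3, Ccl4, Ccl5, Ccl6, Ccl9 and Ccl24. They were taken by name, as the rows of the expression table whose Ensembl ID carries one of these symbols. All 10 were found among 56980 genes, and all 10 were among the 14776 genes tested, which had a level of at least 1 TPM (transcripts per 1000000 transcripts) in at least 3 libraries. TAMs came from tumors of female C57BL/6 mice, 6 to 8 weeks old at the start, that received ID8 cells, a mouse epithelial ovarian cancer line, into the peritoneal cavity. Tumors were collected 2 months later, and live CD45+CD11b+Ly6G-F4/80+ cells were sorted for RNA sequencing. The WT TAM group held 3 libraries from wild-type mice and the C5aR-/- TAM group 3 libraries from mice without the complement C5a receptor. The knockout was of the whole animal on a C57BL/6 background, so cells other than macrophages also lacked the receptor, while the injected ID8 cells were the same line in both groups.

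CC chemokines are named for a pair of adjacent cysteines and act on G protein-coupled receptors of leukocytes. The ligands related to CCL2 draw in monocytes through CCR2, those related to CCL3 and CCL5 act on macrophages, T cells and NK cells, and CCL24 acts on eosinophils through CCR3. In tumors, macrophages both respond to these ligands and make them. Of the 10 genes, 9 lie in a pair of clusters on chromosome 11 (mm10). The first holds Ccl2, Ccl7, Ccl12 and Ccl8 in this order, between bases 82035571 and 82116799, with Ccl11, which is not among the 10, between Ccl7 and Ccl12. The second holds Ccl5, Ccl9, Ccl6, Ccl3 and Ccl4, between bases 83525778 and 83664683. Ccl24 lies on the minus strand of chromosome 5, from 135569937 to 135573049.

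The 6 libraries differed in their content of macrophage transcripts. C5ar1, the deleted gene, ranged from 16.2 to 86.5 TPM over the WT libraries and from 0.05 to 0.38 TPM over the C5aR-/- libraries, as labelled. The summed TPM of 11 macrophage genes, among them Adgre1 (F4/80) and Csf1r, ran from 2617 to 9105 in WT and from 2627 to 9278 in C5aR-/- TAMs. Their mean log2(TPM + 1), called the macrophage index here, was 7.80, 6.61 and 6.13 in WT TAM 1, 2 and 3 and 8.30, 7.36 and 6.52 in C5aR-/- TAM 1, 2 and 3, so the groups overlapped. The summed TPM of 8 genes of epithelial, tumor or mesothelial cells was high throughout, at 2677 to 3045 in WT and 2332 to 3075 in C5aR-/- TAMs. Among them, Epcam was low, at 3.03 to 6.33 TPM in WT and 2.09 to 4.84 TPM in C5aR-/- TAMs. Which of these cell types the RNA came from was not tested. Within this list, Krt8 and Msln were higher in C5aR-/- TAMs without overlap, and Upk3b was lower without overlap. Msln was at 135 to 180 TPM in WT and 268 to 288 TPM in C5aR-/- TAMs, and Upk3b at 291 to 380 and 48.75 to 206 TPM. Of all genes tested, 8.84% were higher and 12.5% lower without overlap. The groups did not overlap in the summed TPM of 8 neutrophil genes (656.0 to 2494 in WT, 33.0 to 434 in C5aR-/-) and of 8 genes of large peritoneal macrophages (273 to 767 in WT, 115 to 209 in C5aR-/-). In bulk RNA, fewer cells of a type and less RNA per cell cannot be told apart.

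Ccl8 was called higher in C5aR-/- TAMs, and 0 of the 10 ligands were called lower. A gene was called where limma on log2(TPM + 1) gave a p under 0.05, before adjustment, and the groups differed at least 2-fold. By this rule 4.96% of all genes tested were called, 2.13% as higher and 2.84% as lower. With p-values adjusted over all genes tested (Benjamini-Hochberg), limma called 0 of the 10 ligands and 0.0% of all genes. At an unadjusted p under 0.05 and any fold, limma gave 1 of the 10, Ccl8, and 14.4% of all genes. The log2 difference of C5aR-/- minus WT was above 0 for 3 ligands and below 0 for 7, and its median was -0.24, against -0.05 over all genes tested.

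In both groups Ccl6 had the highest mean level per transcript length, at 419 ± 369 TPM (SD, n = 3) in WT and 376 ± 299 TPM (SD, n = 3) in C5aR-/- TAMs. It was the highest ligand in 4 of the 6 libraries, while Ccl5 was highest in WT TAM 3 (169 TPM, against 96.1 for Ccl6) and Ccl2 in C5aR-/- TAM 3 (218 TPM, against 93.2 for Ccl6). In WT TAMs the order of mean TPM was Ccl6, Ccl4, Ccl3, Ccl5, Ccl9, Ccl2, Ccl7, Ccl24, Ccl12 and Ccl8. Of these neighbors in rank, only Ccl12 and Ccl8 had ranges that did not overlap over the 3 libraries. In C5aR-/- TAMs the order was Ccl6, Ccl2, Ccl9, Ccl3, Ccl5, Ccl4, Ccl7, Ccl24, Ccl8 and Ccl12, and the ranges of all neighbors overlapped. The summed TPM of the 10 ligands was 1954, 1132 and 477 in WT TAM 1, 2 and 3 and 1505, 1058 and 522 in C5aR-/- TAM 1, 2 and 3. Within that sum, the share of Ccl8 was 0.314% to 1.19% in WT and 1.78% to 3.41% in C5aR-/- TAMs, and the share of Ccl2 was 7.46% to 12.9% in WT against 3.58%, 25.3% and 41.7% in C5aR-/- TAM 1, 2 and 3.

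**Figure D1:**
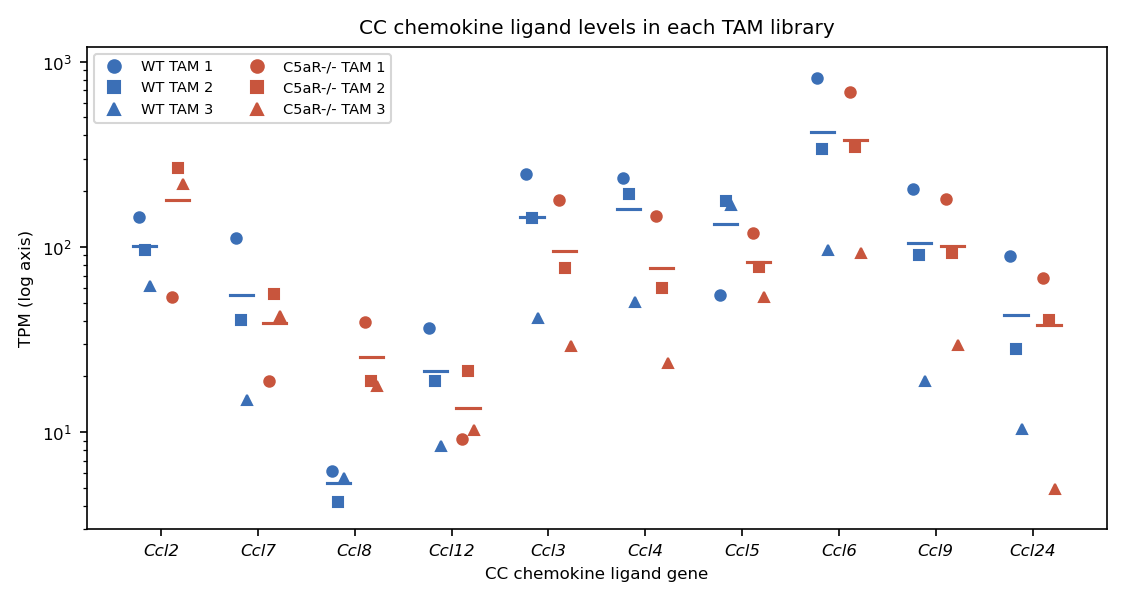
TPM of each CC chemokine ligand gene (x axis) on a log axis (y axis), with a point for each library (blue, WT TAM; red, C5aR-/- TAM; symbol, library number) and a line at the mean of each group of 3. The Ccl8 values of the C5aR-/- libraries (17.8 to 39.5 TPM) lie above those of the WT libraries (4.19 to 6.14 TPM), and for the other 9 genes the groups overlap.

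Ccl8 encodes a ligand that acts in the mouse mainly on CCR8, a receptor of T helper and regulatory T cells. It lies on the plus strand of chromosome 11, from 82115185 to 82116799. Its level was 6.14, 4.19 and 5.66 TPM in WT TAM 1, 2 and 3 and 39.5, 18.9 and 17.8 TPM in C5aR-/- TAM 1, 2 and 3. Every C5aR-/- library lay above every WT library, and the WT libraries stayed within 1.47-fold of each other. Non-overlap in this direction was seen for 8.84% of all genes tested. The mean of the C5aR-/- group was 4.76 times that of the WT group. On the log2 scale the difference was 1.98 with a standard error of 0.33, and limma's adjusted p of 0.093 did not pass 0.05. An exact permutation test of 3 against 3 libraries (two-sided, p = 0.1) gave the smallest value it can give. Neutrophil genes moved with the groups in the opposite direction to Ccl8 (8 of 8 below 0 in log2 difference, 5 called lower). Large peritoneal macrophage genes did too (8 of 8 below 0, 4 called lower), but Gata6 of this list barely differed. Gata6 was at 91.1 to 116 TPM in WT and 86.8 to 104 TPM in C5aR-/- TAMs, with overlap (log2 difference -0.16). No gene of either list was at 0 in any library. Mast cell genes also moved with the groups, with 5 of 7 tested called lower and Kit called higher. Their summed TPM over 8 genes was 86.8 to 141 in WT and 61.6 to 90.5 in C5aR-/- TAMs. Most of the C5aR-/- sum was Kit, at 54.65 to 85.38 TPM there and 28.92 to 33.06 TPM in WT. Mcpt4, Tpsb2, Fcer1a, Cpa3 and Ms4a2 were listed at 0 in at least 1 C5aR-/- library. The part of these cell types in the result was not tested.

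Ccl12, which encodes a CCR2 ligand of the mouse, is the neighbor of Ccl8 and was not called in either direction. Its level was 36.7, 18.9 and 8.44 TPM in WT TAM 1, 2 and 3 and 9.19, 21.3 and 10.3 TPM in C5aR-/- TAM 1, 2 and 3. The groups overlapped, with the highest value in WT TAM 1 and the lowest in WT TAM 3. Its log2 difference from limma was -0.49 ± 0.54 (SE, adjusted p = 0.72). The 250 bases before the start sites of these neighbors are shown because the genes lie next to each other and only Ccl8 was called. They are from RefSeq (GRCm38.p6), at chr11:82114935-82115184 for Ccl8 and chr11:82101595-82101844 for Ccl12, both on the plus strand, and capitals mark the matches to TATAAA.
Ccl8: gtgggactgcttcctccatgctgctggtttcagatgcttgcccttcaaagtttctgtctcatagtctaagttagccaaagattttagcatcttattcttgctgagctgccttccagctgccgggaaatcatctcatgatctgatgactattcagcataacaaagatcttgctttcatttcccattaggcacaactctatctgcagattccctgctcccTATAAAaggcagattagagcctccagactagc
Ccl12: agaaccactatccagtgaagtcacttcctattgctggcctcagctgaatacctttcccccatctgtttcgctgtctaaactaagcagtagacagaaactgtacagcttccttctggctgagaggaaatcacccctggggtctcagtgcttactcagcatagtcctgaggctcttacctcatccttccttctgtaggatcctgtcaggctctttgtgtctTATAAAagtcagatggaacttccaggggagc
The TATAAA match began 32 bases before the start in Ccl8 and 31 bases before it in Ccl12. Of 32851 RefSeq promoters, 7.59% held TATAAA on the plus strand in the same window. Neither sequence held a match to TGANTCA, the AP-1 motif, or to the NF-kB motif on either strand, against 6.75% and 7.25% of all promoters.

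Ccl2 and Ccl7 encode CCR2 ligands that recruit monocytes from the blood. Ccl2 was at 146, 95.7 and 61.4 TPM in WT TAM 1, 2 and 3 and at 53.8, 268 and 218 TPM in C5aR-/- TAM 1, 2 and 3. The C5aR-/- libraries held both the lowest value of the series and the 2 highest. Limma gave Ccl2 a log2 difference of 0.62 ± 0.63 (SE, adjusted p = 0.693). With C5aR-/- TAM 1 left out it was 1.34 ± 0.35 (SE, adjusted p = 0.106 from limma, where all alternatives gave 0.106 to 0.941), and Ccl2 was then called higher, as were 4.19% of all genes. C5aR-/- TAM 1 had the highest macrophage index of all libraries and the lowest Ccl2. The mean log2(TPM + 1) of 7 stroma genes was also lowest in C5aR-/- TAM 1, at 2.67. It was 3.44 and 3.87 in C5aR-/- TAM 2 and 3 and 3.17 to 3.62 in WT TAMs. By summed TPM, C5aR-/- TAM 1 was instead the highest of its group (568.5, against 440.7 and 455.1). The genes of this list did not share an order. In C5aR-/- TAM 1, 2 and 3, Col1a1 was at 1.21, 43.3 and 236 TPM and Dcn at 548, 372 and 180 TPM. The part of stroma in the Ccl2 level was not tested. Ccl7 was at 111, 40.2 and 14.8 TPM in the WT libraries and at 18.9, 55.6 and 42.2 TPM in the C5aR-/- libraries, with the same order of libraries within each group. It varied 7.49-fold within WT and 2.94-fold within C5aR-/- TAMs, and limma gave it a log2 difference of -0.19 ± 0.73 (SE, adjusted p = 0.927). The Ccl7 difference turned positive when WT TAM 1 (0.52) or C5aR-/- TAM 1 (0.24) was left out. Of 6 monocyte genes, 5 were below 0 in log2 difference with a list median of -1.04, 1 (Ly6c2) was called lower and 0 higher, and none was at 0 in any library. Their summed TPM was 138 to 257 in WT and 43.3 to 282 in C5aR-/- TAMs, and their part in the Ccl2 and Ccl7 levels was not tested. For Ccl2, Ccl7 and Ccl12 alike, C5aR-/- TAM 1 was the lowest and C5aR-/- TAM 2 the highest of the C5aR-/- libraries.

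Ccl3 and Ccl4 encode inflammatory chemokines made by activated macrophages, T cells and NK cells. Ccl3 was at 248, 144 and 41.5 TPM in WT TAM 1, 2 and 3 and at 179, 77.0 and 29.0 TPM in C5aR-/- TAM 1, 2 and 3. Ccl4 was at 237, 194 and 50.5 TPM in the WT libraries and at 147, 59.8 and 23.6 TPM in the C5aR-/- libraries. In both genes the groups overlapped, and the first library of each group was the highest and the third the lowest. The mean Ccl4 level in C5aR-/- TAMs was 0.478 of that in WT TAMs, the lowest such ratio of the 10 ligands. In limma, Ccl4 differed by -1.14 ± 0.79 (SE, adjusted p = 0.554) and Ccl3 by -0.62 ± 0.83 (SE, adjusted p = 0.77) on the log2 scale. Ccl4 was called lower with WT TAM 3 left out (-1.83, where 2.74% of all genes were called lower) and with C5aR-/- TAM 1 left out (-1.79, where 4.38% were). It was also called lower with the replicate number as a block (-1.14, where 3.16% were), and its adjusted p from limma over all alternatives was 0.105 to 0.87. Ccl3 had a difference of 0.04 without C5aR-/- TAM 3, opposite in sign to that of all libraries. These genes lie on opposite strands and do not overlap in GENCODE M21, while a RefSeq transcript of Ccl4 starts inside Ccl3, and whether the authors' estimates used strand is not given in the sources used here.

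Ccl5, a chemokine made mostly by T cells and NK cells but also by macrophages, followed another library order. It was at 55.1, 176 and 169 TPM in WT TAM 1, 2 and 3 and at 119, 77.5 and 53.7 TPM in C5aR-/- TAM 1, 2 and 3. WT TAM 1, the WT library with the highest macrophage index, had the lowest WT value, and the groups overlapped. Limma gave a log2 difference of -0.57 ± 0.50 (SE, adjusted p = 0.644). With WT TAM 1 left out it was -1.12 ± 0.34 (SE, adjusted p = 0.327 from limma, where all alternatives gave 0.327 to 0.936), and Ccl5 was then called lower, as were 3.43% of all genes. The summed TPM of 7 T cell genes was 45.3, 72.0 and 97.6 in WT TAM 1, 2 and 3 and 68.5, 46.5 and 17.2 in C5aR-/- TAM 1, 2 and 3, with none of the 7 at 0 in any library. Of these 7 genes, 1 was called lower and 0 higher. The summed TPM of 6 NK cell genes was 6.94 to 20.7 in WT and 10.1 to 13.8 in C5aR-/- TAMs, also with none at 0. The part of either cell type in the Ccl5 level was not tested.

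Ccl6 and Ccl9 encode CCR1 ligands of rodents that macrophages and other myeloid cells make in quantity. Ccl6 was at 820.4, 340 and 96.1 TPM in WT TAM 1, 2 and 3 and at 688, 348 and 93.2 TPM in C5aR-/- TAM 1, 2 and 3. Ccl9 was at 205, 90.5 and 18.9 TPM in the WT libraries and at 182, 92.3 and 29.5 TPM in the C5aR-/- libraries. Both genes spread over nearly the same range in the 2 groups, 8.54-fold in WT and 7.39-fold in C5aR-/- TAMs for Ccl6 and 10.8-fold and 6.17-fold for Ccl9. The log2 differences were -0.09 (standard error 0.96) for Ccl6 and 0.16 (standard error 0.97) for Ccl9, with adjusted p-values from limma of 0.974 and 0.957. Both standard errors were close to a 2-fold difference. The bases before the start sites of this pair are shown because the genes are neighbors on the minus strand and had the most alike profiles of all ligand pairs. They are from RefSeq (GRCm38.p6), at chr11:83593088-83593337 for Ccl6 and chr11:83578637-83578886 for Ccl9, written along the minus strand, and capitals mark the matches to TATAAA, to TGANTCA and to the NF-kB motif, in this order.
Ccl6: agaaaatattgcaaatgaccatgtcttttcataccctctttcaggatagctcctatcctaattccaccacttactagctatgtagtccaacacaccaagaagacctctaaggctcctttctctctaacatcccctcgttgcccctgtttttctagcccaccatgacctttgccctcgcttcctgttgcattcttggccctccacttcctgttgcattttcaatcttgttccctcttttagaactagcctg
Ccl9: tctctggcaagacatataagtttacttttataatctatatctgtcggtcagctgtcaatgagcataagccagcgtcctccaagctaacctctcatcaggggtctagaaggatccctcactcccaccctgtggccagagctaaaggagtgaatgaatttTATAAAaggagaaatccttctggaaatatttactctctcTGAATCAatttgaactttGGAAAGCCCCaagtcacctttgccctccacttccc
Ccl9 held all 3 matches, beginning 92, 53 and 35 bases before the start, the NF-kB match was on the other strand, and the matches did not overlap each other. Ccl6 held none of the 3 in this window.

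Ccl24 encodes an eosinophil attractant that alternatively activated macrophages make. It was at 89.8, 28.2 and 10.4 TPM in WT TAM 1, 2 and 3 and at 68.0, 40.1 and 4.94 TPM in C5aR-/- TAM 1, 2 and 3. It spread 13.8-fold within the C5aR-/- group, the widest of the 10 ligands in either group, and its spread within groups on the log2 scale was larger than that of 99.1% of all genes tested. Limma gave a log2 difference of -0.28 ± 1.07 (SE, adjusted p = 0.927), which turned positive when WT TAM 1 (0.49) or C5aR-/- TAM 3 (0.77) was left out. Eosinophil genes were low, with a summed TPM over 5 genes of 4.16 to 11.5 in WT and 2.01 to 6.34 in C5aR-/- TAMs. Of these genes 2 were tested, and 1, Prg2, was called lower. Epx was under the filter, at 0.37 to 0.77 TPM in WT and at 0 in all 3 C5aR-/- libraries.

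**Figure D2:**
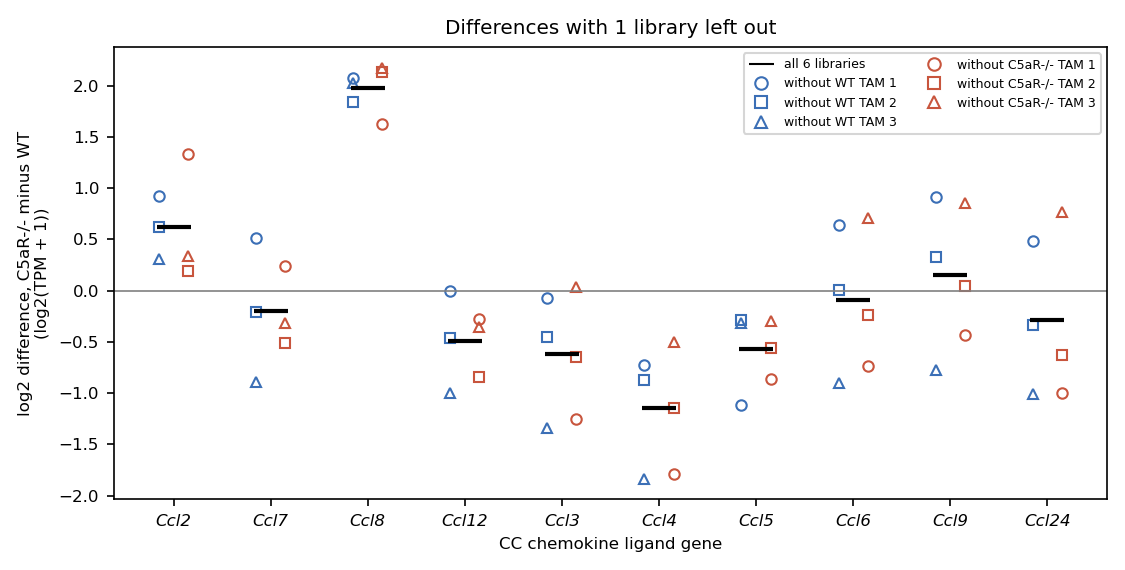
Log2 difference of C5aR-/- minus WT TAMs (y axis, log2(TPM + 1)) for each ligand gene (x axis), over all 6 libraries (black bar) and with 1 library left out (open symbols, colored by the group of the library that was left out). Ccl8 stayed between 1.62 and 2.18, and the values of Ccl7, Ccl3, Ccl6, Ccl9 and Ccl24 lay on both sides of 0.

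Within each group, 5 of the 10 ligands ranked their 3 libraries in the order of the macrophage index in both groups, namely Ccl3, Ccl4, Ccl6, Ccl9 and Ccl24. The same was true of 6.83% of all genes tested. Ccl2, Ccl7 and Ccl12 followed the index in WT but not in C5aR-/- TAMs, and Ccl8 and Ccl5 in C5aR-/- but not in WT TAMs. With the macrophage index as a covariate in limma, 4 of the 10 ligands were called. Ccl8 was higher, by 1.77 ± 0.28 (SE) on the log2 scale. Ccl4 was lower at -1.86 ± 0.40 (SE), Ccl3 at -1.40 ± 0.32 (SE) and Ccl24 at -1.30 ± 0.39 (SE). Ccl6 was just short of the 2-fold threshold, at -0.998 ± 0.33 (SE), and Ccl9 was at -0.74 ± 0.40 (SE), opposite in sign to its value without the covariate. In this fit 3.12% of all genes were called higher and 3.93% lower, and the lowest adjusted p of the 10 ligands was 0.0735 from limma (Ccl8). The index was itself 0.55 higher on average in C5aR-/- than in WT TAMs, with SDs of 0.86 and 0.89 (n = 3 each).

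With the index subtracted from log2(TPM + 1) in each library, a measure chosen after the data were seen, Ccl3 ran from -0.71 to 0.58 in WT and from -1.61 to -0.80 in C5aR-/- TAMs. Ccl4 ran from -0.44 to 1.003 in WT and from -1.90 to -1.09 in C5aR-/- TAMs, and Ccl8 from -4.96 to -3.39 in WT and from -2.96 to -2.29 in C5aR-/- TAMs. These 3 ligands did not overlap between groups on this measure, and the other 7 did. Among the genes of the index itself, Adgre1 and Lyz2 were lower and Cd68 higher in C5aR-/- TAMs without overlap on this measure. The rest of the index genes overlapped. Of all genes tested, 4.24% did not overlap with lower C5aR-/- values and 0.271% with higher ones.

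**Figure D3:**
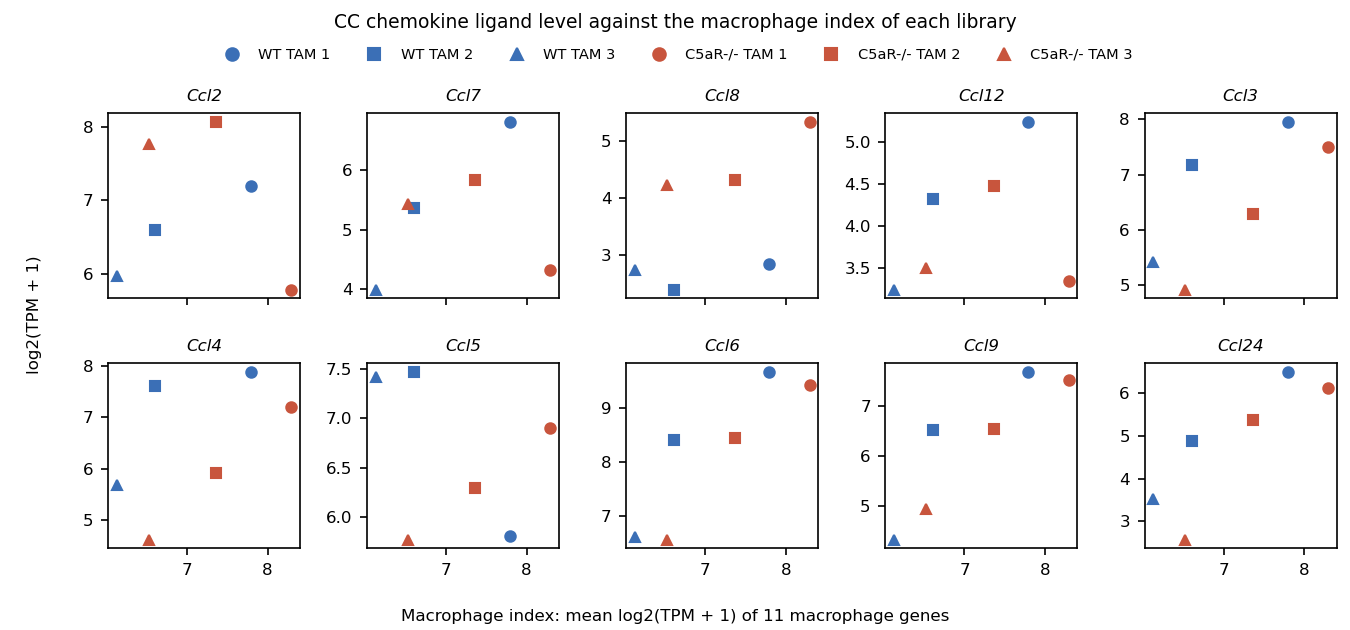
Level of each ligand as log2(TPM + 1) (y axes, scaled per panel) against the macrophage index (x axis, mean log2(TPM + 1) of 11 macrophage genes), with a point for each library (blue, WT TAM; red, C5aR-/- TAM; symbol, library number). Ccl3, Ccl4, Ccl6, Ccl9 and Ccl24 lie higher where the index is higher in both groups. In each of these genes, C5aR-/- TAM 3 (index 6.52) lies below WT TAM 2 (6.61), the WT library of nearest index. Ccl2, Ccl7 and Ccl12 are lowest among the C5aR-/- points in C5aR-/- TAM 1, the library with the highest index (8.30).

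**Figure D4:**
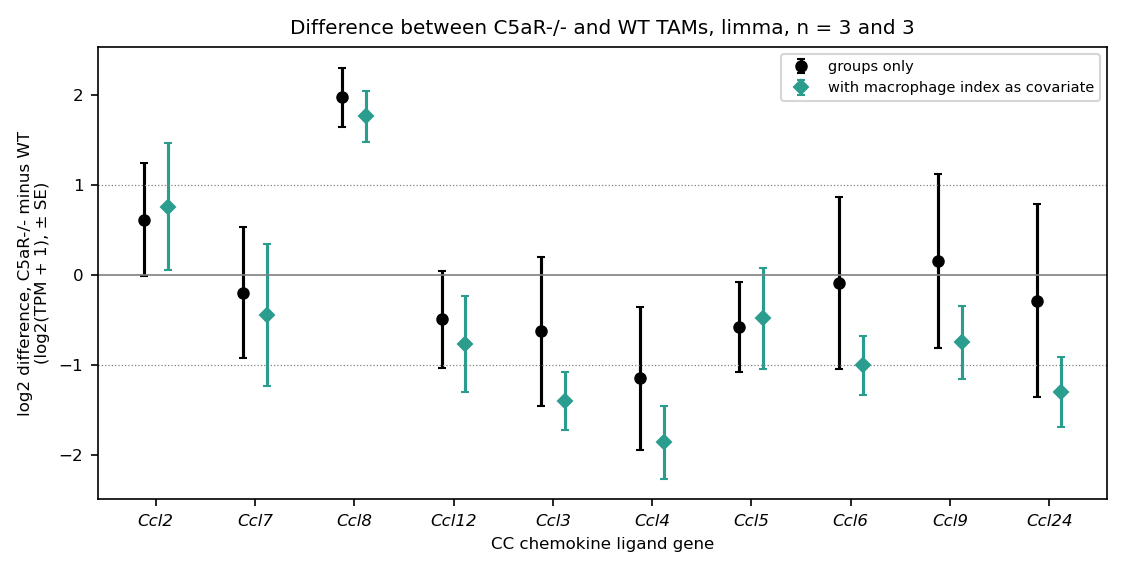
Log2 difference of C5aR-/- minus WT TAMs with its standard error (y axis) for each ligand gene (x axis), from limma with the groups only (black circles) and with the macrophage index as a covariate (green diamonds), with 3 libraries per group. Dotted lines mark a fold change of 2. Ccl8 lies above the upper line in both fits, and Ccl3, Ccl4 and Ccl24 have narrower errors and lower values with the covariate.

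A TPM ratio of 2 genes within a library does not depend on how the library was scaled. The ratio was taken for the 7 pairs that follow each other among the 10 ligands on chromosome 11, also after the data were seen. Ccl8 to Ccl12 was 0.167, 0.222 and 0.671 in WT TAM 1, 2 and 3 and 4.30, 0.888 and 1.73 in C5aR-/- TAM 1, 2 and 3, with no overlap between the groups. Ccl3 to Ccl4 was 1.05, 0.742 and 0.823 in the WT libraries and 1.22, 1.29 and 1.23 in the C5aR-/- libraries, also with no overlap. The ratio was steady within the C5aR-/- group, at 1.25 ± 0.0364 (SD, n = 3), although Ccl3 varied 6.18-fold and Ccl4 6.21-fold there. The other 5 ratios overlapped. Ccl8 by itself did not overlap either, and no share over other pairs of genes was taken for comparison. Ccl6 to Ccl9 stayed between 3.16 and 5.07 in all 6 libraries, and Ccl5 to Ccl9 varied most, from 0.269 to 8.92 within WT TAMs. The exact permutation test (two-sided) gave p = 0.1 for the 2 pairs that did not overlap, the smallest that 3 against 3 libraries allow, and 0.35 after Benjamini-Hochberg adjustment over the 7 pairs.

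**Figure D5:**
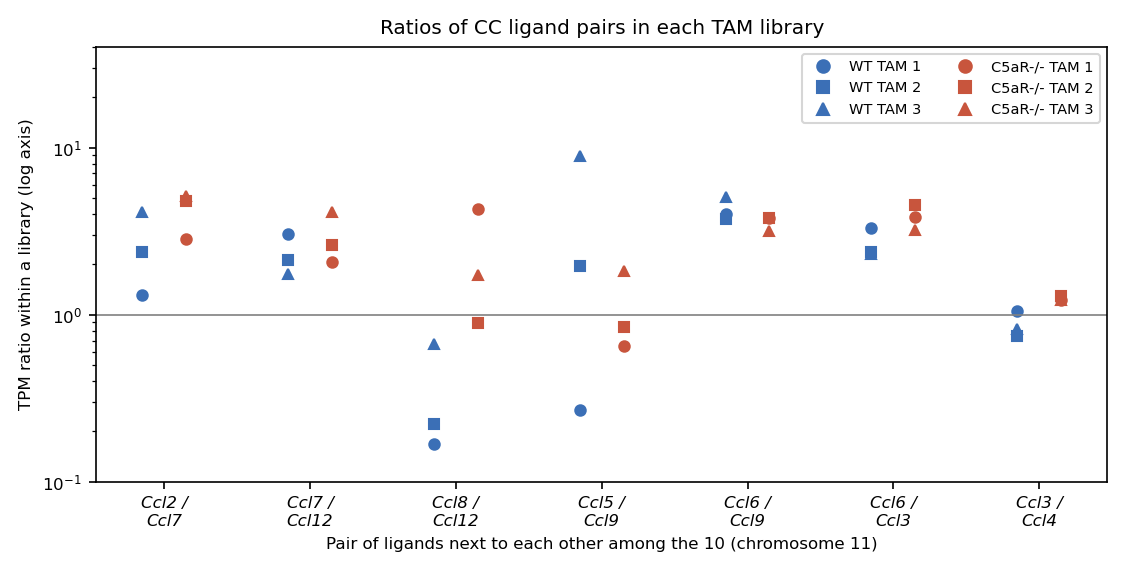
TPM ratio within each library (y axis, log scale) for the 7 pairs that follow each other among the 10 ligands on chromosome 11 (x axis, Ccl11 lies between Ccl7 and Ccl12), with a point for each library (blue, WT TAM; red, C5aR-/- TAM; symbol, library number) and a line at a ratio of 1. Ccl8 to Ccl12 (0.167 to 0.671 in WT, 0.888 to 4.30 in C5aR-/-) and Ccl3 to Ccl4 (0.742 to 1.05 in WT, 1.22 to 1.29 in C5aR-/-) do not overlap between the groups.

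Of the 11 other CC ligand genes looked up, 4 passed the filter on low TPM and 7 did not, with no value above 1.73 TPM among those 7. Of the 4, 1 was called higher and 0 lower. It was Ccl17, which encodes a ligand of CCR4 made by dendritic cells and macrophages, at 0.61, 3.25 and 2.79 TPM in WT TAM 1, 2 and 3 and 7.11, 12.7 and 7.97 TPM in C5aR-/- TAM 1, 2 and 3. Its groups did not overlap, and limma gave a log2 difference of 1.75 ± 0.42 (SE, adjusted p = 0.165). With the macrophage index subtracted, its groups overlapped. Ccl27a was at 38.9 to 52.8 TPM in WT and 22.8 to 37.5 TPM in C5aR-/- TAMs, not overlapping but under 2-fold, as 12.5% of all genes tested were lower without overlap, and it has near-identical copies that may share its reads. Of the ligands not called, Ccl22, which lies beside Ccl17 on chromosome 8 and encodes another CCR4 ligand, was at 2.76 to 4.10 TPM in WT and 2.92 to 3.49 TPM in C5aR-/- TAMs. Dendritic cell genes had a summed TPM over 6 genes of 27.1 to 32.5 in WT and 18.0 to 49.2 in C5aR-/- TAMs, with 0 of 5 tested called in either direction, and their part in the Ccl17 level was not tested.

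Of the 14 CC chemokine receptor genes, decoy receptors included, 8 were tested and 0 were called in either direction by limma, where 1 had an unadjusted p under 0.05. That one was Ackr4, a scavenger of CC ligands that was looked at after its values were seen, at 8.41, 8.16 and 13.2 TPM in WT and 5.44, 7.34 and 3.44 TPM in C5aR-/- TAMs (log2 difference -0.79, adjusted p = 0.318 from limma). Ccr2 was at 12.8 to 22.7 TPM in WT and 16.3 to 25.2 TPM in C5aR-/- TAMs, and Ccr1 at 15.9 to 42.6 and 16.1 to 34.6 TPM. Their log2 differences were 0.15 and 0.10, with adjusted p-values of 0.831 and 0.934 from limma. Ccr3 and Ccr8 were under the filter, Ccr3 with at most 1.77 TPM and Ccr8 with 0.08 to 0.30 TPM in WT and 0.34 to 1.13 TPM in C5aR-/- TAMs.

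The genes most like each ligand were found over the 6 libraries by the root mean square difference of log2(TPM + 1) after subtracting each gene's mean, among 14432 tested genes with a symbol. The nearest to Ccl8 were Acp5 (0.186), 2210011C24Rik (0.205) and Ms4a7 (0.229). Acp5, the tartrate-resistant acid phosphatase of osteoclasts and macrophages, was at 18.1 to 22.9 TPM in WT and 61.8 to 125 TPM in C5aR-/- TAMs. The nearest to Ccl7 were Rgcc (0.134), Igkv13-84 (0.367) and Gm13194 (0.374), those to Ccl2 were Gm15696 (0.220), AI838599 (0.224) and Enpep (0.225), and those to Ccl12 were Gm16200 (0.246), Tppp (0.276) and Rab2b (0.278). Rgcc was at 57.5, 26.8 and 7.54 TPM in the WT libraries and 10.4, 27.7 and 23.8 TPM in the C5aR-/- libraries. Gm15696, Igkv13-84, Gm13194 and Gm16200 were low, at 0 in at least 1 library and at most 5.85 TPM. The nearest to Ccl6 were Cxcl2 (0.158), which encodes a neutrophil attractant, Ccl9 (0.193) and Osm (0.223), and those to Ccl9 were Ccl6 (0.193), Osm (0.256) and Folr2 (0.268). The nearest to Ccl3 were the immunoglobulin gene Igkv1-117 (0.223), Cfp (0.231) and Cxcl2 (0.233), and those to Ccl24 were the immunoglobulin gene Ighv1-75 (0.219), Ccl6 (0.320) and Cxcl2 (0.334). The nearest to Ccl4 were Blk (0.221), a kinase of B cells, Chil3 (0.229) and Tnf (0.230), the inflammatory cytokine. The summed TPM of 5 B cell genes was 140.2, 166 and 33.7 in WT TAM 1, 2 and 3 and 168, 54.6 and 9.16 in C5aR-/- TAM 1, 2 and 3. It was lowest in the third library of each group, as Ccl3, Ccl4, Ccl6, Ccl9 and Ccl24 were. Among the WT libraries it was highest in WT TAM 2, while these ligands were highest in WT TAM 1. Its part in these ligand levels was not tested. The nearest to Ccl5 were 1500015O10Rik (0.165), Gm2026 (0.205) and 3300002I08Rik (0.206). 1500015O10Rik was at 0.09 to 3.71 TPM over the 6 libraries, and Ighv1-75, nearest to Ccl24, was at 0 in C5aR-/- TAM 3. Ccl12 was the fifth nearest gene to Ccl7 (0.399), and Ccl8 had none of the other ligands among its 20 nearest genes.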

How the data were processed

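Poly(A) RNA was sequenced, and the authors used fastp for trimming, HISAT2 for alignment and StringTie for expression. The submitters' processing notes add RSEM and the build mm10, with no versions given in the sources used here. The deposited values are TPM per gene, normalized for length and library total, plus a pair of columns with the authors' group means, not used here. TPM keeps no depth, so no counting error can be given, and a gene at 0 may be a failed estimate. The study's count-based tests need counts, so limma was used. Symbols and gene coordinates came from GENCODE M21 (GRCm38, the same build as mm10), and 52073 of 56980 IDs matched. Promoters, for 5 of the 10 ligands, came from RefSeq.

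log2(TPM + 1) was fitted with limma 3.58.1 in R 4.3.3 (eBayes with trend) over 14776 genes, and tables were made with Python 3.11.15 and pandas 2.3.3. Differences on this scale understate the change of low genes. The fit was tested on simulated data. The study's figure legends give 4 mice per group for RNA sequencing, while 3 libraries per group were analysed here. How mice map to libraries is not given in the sources used here, so p-values measure the spread between these libraries, which may be partly technical. The ligands, lists and tests were chosen with earlier results of these data known. Named genes were the 10 ligands, other CC ligands and receptors past the unadjusted threshold, the receptors Ccr1, Ccr2, Ccr3 and Ccr8, and the 3 genes nearest in profile to each ligand. Ackr4, Ccl22 and Ccl27a fall outside this rule and were chosen after their values were seen, as was Ccr7. 1 further receptor of that rule is not reported here. As alternatives, the pseudocount was set to 0.1, the filter dropped or raised to 5 TPM, values rescaled by quantiles or by median ratios, the trend dropped, the replicate number added as a block or the macrophage index as a covariate, and each library left out.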

Additional observations from a re-analysis of the deposited data

How the results depend on the processing

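Ccl8 was called higher under all 14 alternatives (log2 difference 1.62 to 2.18), and Ccl17 likewise (1.31 to 2.25). The adjusted p of Ccl8 was 0.0247 to 0.411 over them, and it was not under 0.05 for all libraries. Of the 10 ligands, 1 was called with all libraries, 2 with the replicate block (Ccl4 at -1.14 joined), 4 with the macrophage index covariate and 1 to 3 with 1 library left out. The 3 were reached without C5aR-/- TAM 1 (Ccl8, Ccl2 and Ccl4). Without WT TAM 1 Ccl5 joined Ccl8, and without WT TAM 3 Ccl4 did. The median of the 10 ligands was -0.90 to 0.50 with 1 library left out. With 1 library left out, differences that changed sign gave ranges of -0.89 to 0.52 for Ccl7, -1.34 to 0.04 for Ccl3, -0.90 to 0.71 for Ccl6, -0.77 to 0.91 for Ccl9 and -1.01 to 0.77 for Ccl24. Ccl9 was also below 0 with the covariate (-0.74). The cause was not tested. Among the other CC ligands and receptors 1 gene was called, and 1 to 2 with 1 library left out, the second being Ackr4 without C5aR-/- TAM 2 or Ccr7 without C5aR-/- TAM 3. Over all genes, the adjusted count was 0, 2 without trend, 19 with the covariate and 0 to 356 with 1 library left out, the highest without C5aR-/- TAM 1. The unadjusted count was 733, 475 with a TPM of at least 5 (fewer genes tested) and 567 to 1266 with 1 library left out. Quantile normalization split the unadjusted calls into 386 higher and 371 lower, against 314 and 419, and moved the median of all genes to -0.0039 from -0.0481. The replicate numbers were not taken as a pairing, since nothing in the labels or the study says that equal numbers pair mice. Same-numbered libraries correlated across genes at 0.19, -0.01 and 0.27, and the replicate block gave 811 unadjusted and 0 adjusted calls. With the block, the standard error fell for Ccl6 (0.96 to 0.14), Ccl9 (0.97 to 0.19), Ccl3 (0.83 to 0.15), Ccl4 (0.79 to 0.22) and Ccl24 (1.07 to 0.30). It fell less for Ccl8 and Ccl12 and rose for Ccl2, Ccl7 and Ccl5. Depth is unknown, so its effect on low genes was not tested.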
